A study of Mus musculus with 2 samples.

Results

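The genes described here are the kinases and cyclins that carry a cell through the G1 phase of the cell cycle: Cdk6, Cdk4, Cdk2, Ccnd1, Ccnd2, Ccnd3 and Ccne1. They were taken by symbol, 7 of the 32285 genes listed in both count matrices, and all 7 were found and had counts in both libraries. Single-cell RNA sequencing had been carried out on bone marrow cells of wild-type (WT) mice of strain C57Bl6, whose age the series title gives as 8 weeks, with the 10x Genomics 3' v2 kit per the labels. Long-term haematopoietic stem cells (LT-HSC) were sorted by the LSK CD34- CD150+ CD48- Flk2- gate and short-term ones (ST-HSC) by the LSK CD34- CD150+ CD48+ gate, where LSK means lineage negative, Sca-1 positive and Kit positive. No treatment is named, the number of mice pooled per library is not given in the sources used here, and there was 1 library per group. No difference between the libraries therefore has a replicate check, and no p-value is given.

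In G1, D-type cyclins (Ccnd1, Ccnd2 and Ccnd3) bind and activate the kinases Cdk4 and Cdk6, which begin to phosphorylate the retinoblastoma protein and its relatives. Cyclin E, encoded in part by Ccne1, then activates Cdk2, E2F factors are freed, and the cell enters S phase. Cdk6 is known in the blood system for setting how readily a resting stem cell leaves quiescence, and D cyclins are known as the members of the pathway that respond to growth factors.

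Of the 7 genes, 5 were matched in the RefSeq promoter table (GRCm38.p6, the same build as mm10), which gives 250 bases before each gene's start. Ccnd1 and Ccnd2 are not in that table. The windows were searched on both strands for the E-box CACGTG, a motif bound by Myc among other factors, and for the E2F-type motifs TTTCCCGC and TTTGGCGC. The 3 windows that held a match are shown for the position of the match only, with the matching bases in capitals.
Cdk6, chr5:3343661-3343690, plus strand: gttctgcggcccCACGTGggtgaacccccg
Cdk2, chr10:128705173-128705202, minus strand: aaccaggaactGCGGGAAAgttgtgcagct
Cdk4, chr10:127063285-127063533, plus strand: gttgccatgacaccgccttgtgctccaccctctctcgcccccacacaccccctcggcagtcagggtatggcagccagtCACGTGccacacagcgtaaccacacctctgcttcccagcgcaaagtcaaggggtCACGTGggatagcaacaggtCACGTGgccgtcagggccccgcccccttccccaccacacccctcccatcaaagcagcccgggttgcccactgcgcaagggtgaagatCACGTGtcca
The Cdk6 window held 1 E-box, which began 220 bases before the gene start used by RefSeq. That window lies inside the mm10 span of Cdk6 given below and overlaps an annotated Cdk6 exon. The Cdk4 window held 4 E-boxes, beginning 172, 118, 98 and 11 bases before the start. The Cdk2 window held 1 TTTCCCGC match, read on the other strand, which began 140 bases before the start. That window overlaps an exon of Pmel. Ccne1 and both Ccnd3 windows held none of these letters. Of 32851 promoter windows of this length in the table, 7.15% held CACGTG, 1.07% TTTCCCGC and 0.514% TTTGGCGC, so these matches describe the windows and are no evidence of binding.

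In mm10, Cdk6 spans chromosome 5 from 3341485 to 3531008 on the plus strand, with 8 exons. Cdk4 lies on chromosome 10 from 127063534 to 127067920 and Cdk2 on chromosome 10 from 128697939 to 128705031. Ccnd1 lies on chromosome 7 from 144929931 to 144939925, Ccnd2 on chromosome 6 from 127125162 to 127152193, Ccnd3 on chromosome 17 from 47505051 to 47599691 and Ccne1 on chromosome 7 from 38097984 to 38107534. All are protein coding, and 6 of the 7 overlap a gene on the opposite strand, Ccne1 being the exception. The partners with the highest levels were Tspan31 at Cdk4 (31.5 CPM in LT-HSC against 28.5 CPM in ST-HSC) and Bysl at Ccnd3 (29.9 and 20.3 CPM). Whether the counting used strand, or counted introns, is not given in the sources used here. Levels are therefore compared between cells, for 1 gene or 1 fixed set of genes at a time, and not between genes.

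After cells with under 1000 genes or at least 10% mitochondrial UMIs (unique molecular identifiers, 1 per captured RNA molecule) were removed, 2722 LT-HSC and 6648 ST-HSC cells were kept, with 64673871 and 111783180 UMIs. The median cell held 17595 UMIs in the LT-HSC library against 13402 in the other. RNA of the gate's own genes went against the label of the ST-HSC library in part. Slamf1, which encodes CD150, was at 26.5 CPM in LT-HSC against 1.26 CPM in ST-HSC, and Cd34 was at 29.2 and 242 CPM. Names of groups below are those of the libraries as labelled. Of the kept barcodes, 6 occurred in both libraries.

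Cells were grouped by 4 genes. Hlf, a stem cell transcription factor, marked a cell as Hlf-high at 4 or more per 10000 UMIs, Car1, a carbonic anhydrase of early erythroid cells, as Car1-high at 20 or more, and Pf4, a platelet chemokine of megakaryocyte-lineage cells, as Pf4-high at 10 or more. Dntt, a DNA polymerase that early lymphoid cells make, marked a cell at 1 or more UMIs. The LT-HSC library held 605 Hlf-high, 753 Car1-high, 254 Pf4-high and 5 Dntt-positive cells, and 1122 in none of the 4 classes. The ST-HSC library held 3273 Hlf-high, 2355 Dntt-positive, 268 Car1-high and 11 Pf4-high cells, and 1820 in none. The classes are ranges of 1 gene's level and not cell types. Within 25% of the Hlf limit lay 176 cells below and 160 above in LT-HSC, and 545 and 463 in ST-HSC, and 1037 ST-HSC cells were both Hlf-high and Dntt-positive. Classes under 50 cells were not compared.

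Levels are summed UMIs scaled to a total of 1000000 (CPM) with exact Poisson 95% intervals, and ratios carry exact conditional binomial 95% intervals; both cover counting error only. A gene is called higher or lower by size alone, at a ratio of at least 1.5 or its inverse, among genes with a mean of at least 5 CPM.

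Between the whole libraries, Cdk6 was the member past this limit. Cdk6 was at 540 CPM (535 to 546) in LT-HSC and 829 CPM (823 to 834) in ST-HSC, a ratio of 1.53 (1.51 to 1.55). Of the 7 members, 1 was called higher, where 24.9% of all 10412 genes were, and 0 lower, where 10.3% were, so the members' share was not above the background. Scaled with TMM factors, which moved all log2 ratios by -0.13, the Cdk6 ratio was 1.40 and no member passed. Among all genes 2592 were higher and 1072 lower, and with the factors 2003 and 1691. In cells with neither Mki67 nor Top2a UMIs, genes of proliferating cells, no member of 6 tested passed, against 18.2% of all genes higher and 13.5% lower, and the Cdk6 ratio was 1.497.

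Among the kinases, Cdk4 was lower in ST-HSC, at 221 CPM against 278 CPM, a ratio of 0.795 (0.780 to 0.810). Cdk2 was at 23.7 CPM in ST-HSC and 24.7 CPM in LT-HSC, and its interval included 1 (0.901 to 1.02). The mix of RNA of the 2 kinases that partner the D cyclins thus differed between the whole libraries. Of all Cdk4 and Cdk6 UMIs, Cdk6 held 66.0% in LT-HSC and 79.0% in ST-HSC. By class it held 52.4% and 80.7% in Hlf-high cells, but 65.0% and 66.6% in Car1-high cells. These shares are compared between cells and do not measure 1 kinase against the other.

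Among the D cyclins, Ccnd3 stood higher in ST-HSC and Ccnd2 lower. Ccnd3 was at 257 CPM in LT-HSC against 371 CPM in ST-HSC, a ratio of 1.45 (1.42 to 1.47), just under the limit. Ccnd2 was at 159 and 131 CPM, a ratio of 0.821 (0.801 to 0.843), and Ccnd1 at 31.5 and 37.5 CPM, a ratio of 1.19. Of all D cyclin UMIs, Ccnd2 made up 35.5% in LT-HSC and 24.2% in ST-HSC. Ccne1 was at 19.9 CPM in LT-HSC against 17.1 CPM in ST-HSC, a ratio of 0.861 (0.802 to 0.925).

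The libraries differ in their makeup by class, and Cdk6 differed more among classes than between the whole libraries. Lowest of the compared classes for Cdk6 stood the Hlf-high cells of LT-HSC, at 190 CPM (181 to 199). The other classes of LT-HSC followed at 553 CPM in cells of none of the 4 classes, 602 CPM in Car1-high and 676 CPM in Pf4-high cells. In ST-HSC the order was 634 CPM in Car1-high, 767 CPM in Hlf-high, 880 CPM in cells of none and 907 CPM in Dntt-positive cells. The Car1-high cells of both libraries were neighbours in this order, with intervals of the ratio that nearly reached 1 (1.02 to 1.08).

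**Figure D1:**
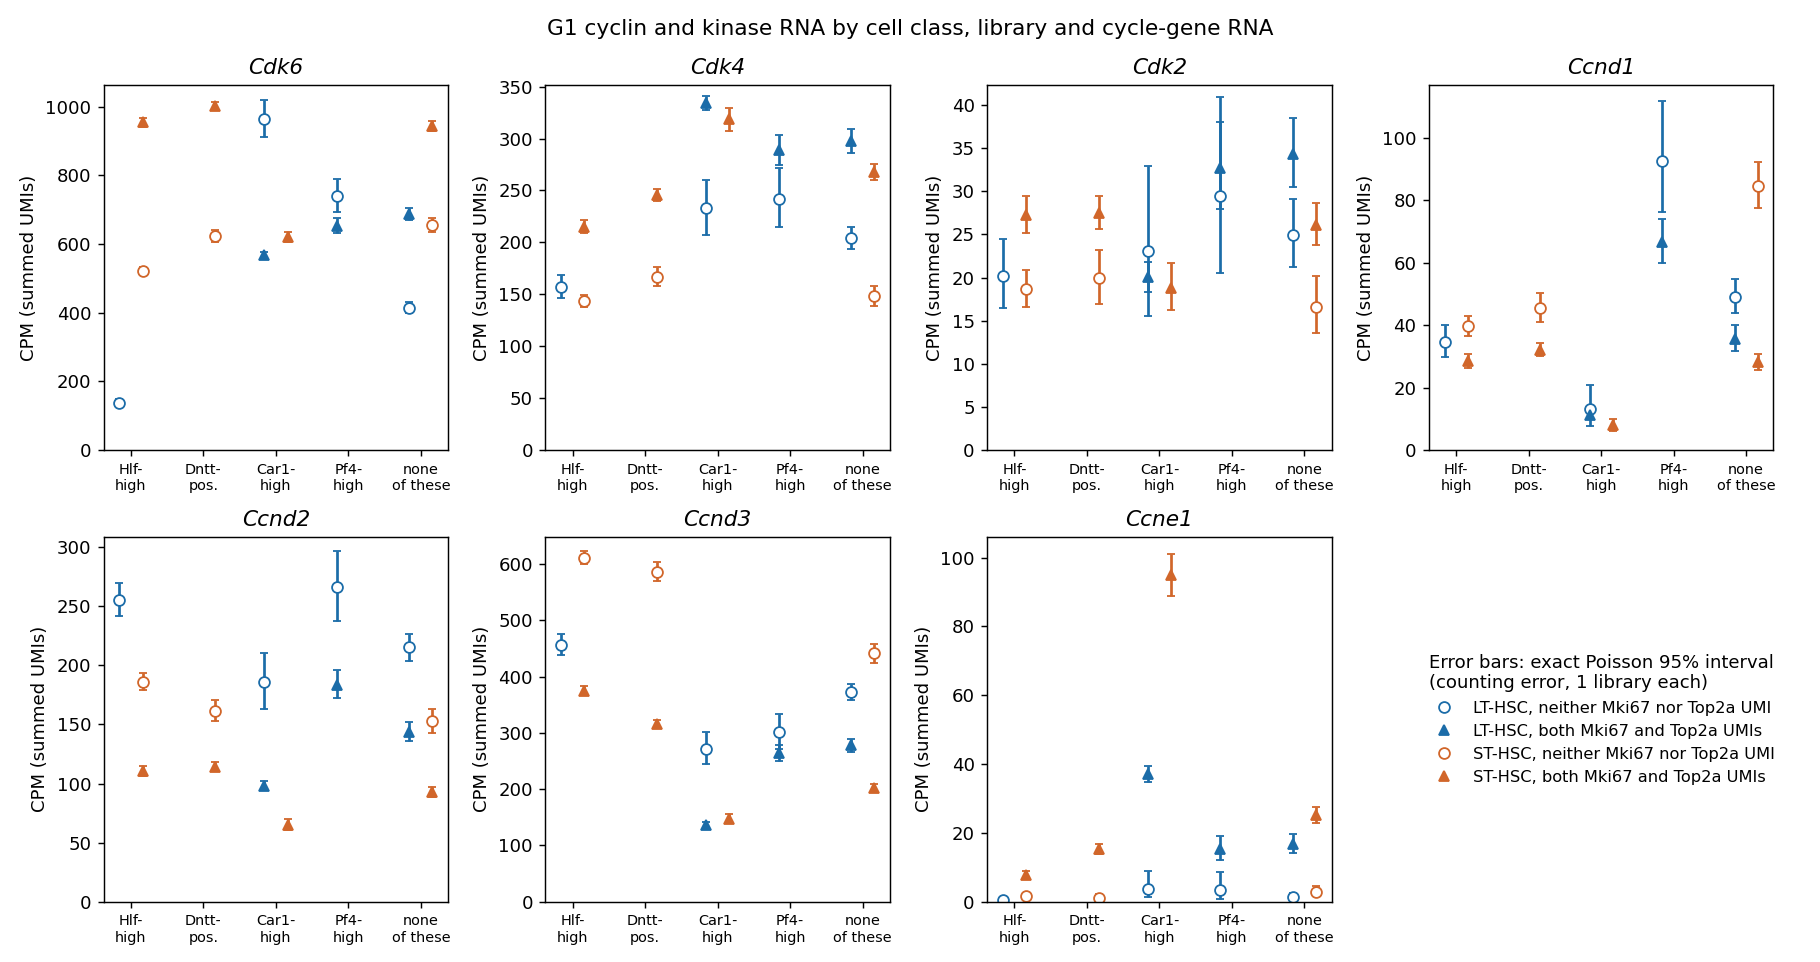
Each panel shows 1 gene's CPM (y axis from 0) in the cell classes (x axis), for LT-HSC (blue) and ST-HSC (orange), in cells with neither Mki67 nor Top2a UMIs (open circles) and with UMIs of both (filled triangles); bars are exact Poisson 95% intervals and groups under 50 cells are left out. The Hlf-high LT-HSC cells with neither gene sit at 138 CPM for Cdk6, below every other group shown, and the Car1-high ST-HSC cells at 94.8 CPM for Ccne1, above every other group.

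Within Hlf-high cells, Cdk6 differed most between the libraries. It was at 190 CPM in LT-HSC against 767 CPM in ST-HSC, a ratio of 4.04 (3.84 to 4.24). After each cell was thinned to 5000 UMIs, 42.4% of LT-HSC and 81.6% of ST-HSC Hlf-high cells held a Cdk6 UMI (unthinned 64.3% and 89.9%). Car1 was found in 15.8% of LT-HSC and 4.75% of ST-HSC thinned cells of the class (unthinned 31.2% and 11.9%), below the shares for Cdk6. These shares cannot gauge RNA carried over from other cells, because the whole libraries hold unequal Car1 (LT-HSC 3099 CPM, ST-HSC 400 CPM). Whether Hlf-high cells make Car1 themselves is also not known here. The part of carried-over RNA in their Cdk6 levels was not tested.

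Ccnd2 was the member lower in ST-HSC among Hlf-high cells, at 150 CPM against 241 CPM, 1.61-fold lower (1.53 to 1.69). Cdk4 stood at 183 and 173 CPM in ST-HSC and LT-HSC, Cdk2 at 23.9 and 22.0 CPM, Ccnd1 at 34.2 and 37.7 CPM and Ccnd3 at 490 and 445 CPM, with ratios from 0.908 to 1.10. Ccne1 did not reach the 5 CPM mean, with 21 UMIs in LT-HSC (2.43 CPM) and 240 in ST-HSC (4.87 CPM). Of the 6 members tested, 1 was called higher, against 16.2% of all genes, and 1 lower, against 13.6%. Among all genes 1741 were higher and 1457 lower, and with TMM factors, which moved log2 ratios by 0.08, 2106 and 1153; the Cdk6 ratio was then 4.28 and that of Ccnd2 0.658.

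Cells with RNA of both Mki67 and Top2a were more frequent among the ST-HSC Hlf-high cells, at 19.6% against 2.72% after thinning (unthinned 28.5% and 5.95%). In Hlf-high cells with neither gene, 440 in LT-HSC and 1567 in ST-HSC, Cdk6 was at 138 and 521 CPM, a ratio of 3.78 (3.50 to 4.08), so the difference was nearly as large without the cells that carried cycle genes. Of 6 members tested there, Cdk6 was the one called higher, against 15.0% of all genes, and 0 were lower, against 13.4%. Ccnd2 was then at a ratio of 0.728 (0.682 to 0.778) and Ccnd3 at 1.34 (1.28 to 1.40).

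RNA of other lineages also moved with this comparison. In Hlf-high cells the lymphoid progenitor list summed to 36.0 CPM in LT-HSC, with UMIs for 5 of 6 genes and Il7r at 0, and to 695 CPM in ST-HSC, with UMIs for all 6. The megakaryocyte list summed to 246 and 47.0 CPM, and the stem cell list to 3465 and 3522 CPM. Genes of the stem cell list went both ways. Hlf, which defines the class, was at 663 CPM in LT-HSC against 885 CPM in ST-HSC, Mecom at 1007 and 1223, and Meis1 at 830 and 993. Lower in ST-HSC were Mllt3, at 599 and 344 CPM, Procr, at 89.8 and 39.1, Pdzk1ip1, at 267 and 37.6, and Hoxb5, at 8.46 and 1.18. The neutrophil-monocyte list summed to 515 and 468 CPM, of which Prtn3 alone made up 513 and 366 CPM, while Mpo was at 0 and 56.9 CPM, Elane at 0.463 and 16.6 CPM and Ctsg at 0.116 and 22.9 CPM. The part of these in the Cdk6 difference was not tested, except that cells with RNA against the gate were left out. Without cells that had Cd34 or Flt3 UMIs, the log2 ratio of Cdk6 was 2.17 and that of Cdk4 -0.91, and when cells with Mki67 or Top2a UMIs were left out too, 78 ST-HSC cells with Cdk6 at 202 CPM (163 to 246) stood against 220 LT-HSC cells at 101 CPM (88.1 to 115), a log2 ratio of 0.9997. The median depth of those cells was 6073 and 9697.5 UMIs, and both settings were chosen after seeing the data.

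**Figure D2:**
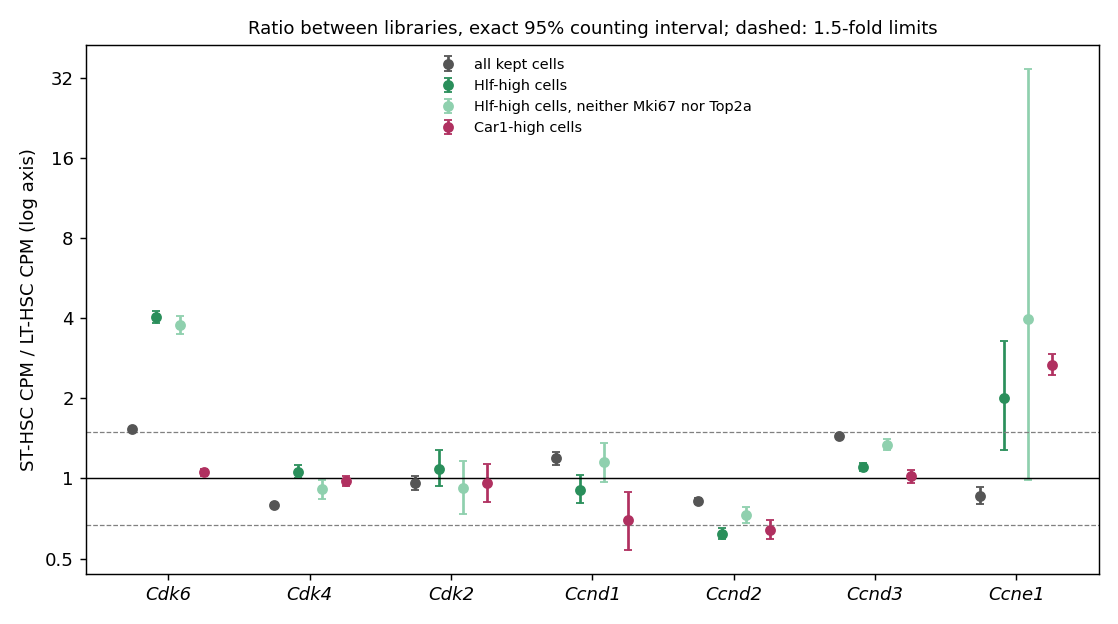
The ratio of ST-HSC to LT-HSC CPM (y axis, log scale) is shown for each gene (x axis) in all kept cells, Hlf-high cells, Hlf-high cells with neither Mki67 nor Top2a UMIs, and Car1-high cells; bars are exact 95% counting intervals and dashed lines mark the 1.5-fold limits. Cdk6 stands near 4 in both sets of Hlf-high cells and at 1.05 in Car1-high cells, and the widest bar is Ccne1 in Hlf-high cells with neither gene, which rests on 2 LT-HSC and 24 ST-HSC UMIs.

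Over steps of Hlf, also below the class limit, Cdk6 went down in LT-HSC, and in ST-HSC it went up and then down. LT-HSC cells under the Hlf limit include most Car1-high and Pf4-high cells of that library, whose part in these steps was not tested. Among LT-HSC cells with neither Mki67 nor Top2a UMIs, Cdk6 was at 828 CPM in 259 cells with no Hlf UMI, 468 CPM above 0 and under 2 Hlf per 10000, 227 CPM at 2 to 4, 140 CPM at 4 to 8 and 125 CPM at 8 to 16. In ST-HSC it was at 485 CPM in 408 cells with no Hlf UMI, and then at 881, 748, 614 and 469 CPM over the same steps, and at 386 CPM at 16 or more. At each of the 4 shared steps with Hlf detected, Cdk6 was higher in ST-HSC, and among cells with none it was lower. A cell with few UMIs can miss Hlf by depth; the median depth of these groups ran from 9220 to 13205 UMIs in LT-HSC and from 8048 to 10727 in ST-HSC.

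Cdk4 and Ccnd3 also differed over the Hlf steps. Cdk4 went from 237 CPM in the LT-HSC cells with no Hlf UMI to 131 CPM at 8 to 16, while Ccnd3, a D cyclin used by lymphoid and erythroid precursors, went from 326 to 480 CPM. In ST-HSC, Cdk4 was at 135 CPM with no Hlf UMI, 195 CPM in the lowest step with Hlf detected and then 175, 154, 139 and 125 CPM. There Ccnd3 went from 423 CPM with no Hlf UMI to 714 CPM at 16 or more. Cells with no Hlf UMI in ST-HSC also held the highest Ccnd1 of these steps, 112 CPM, against 29.5 CPM at 16 or more.

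**Figure D3:**
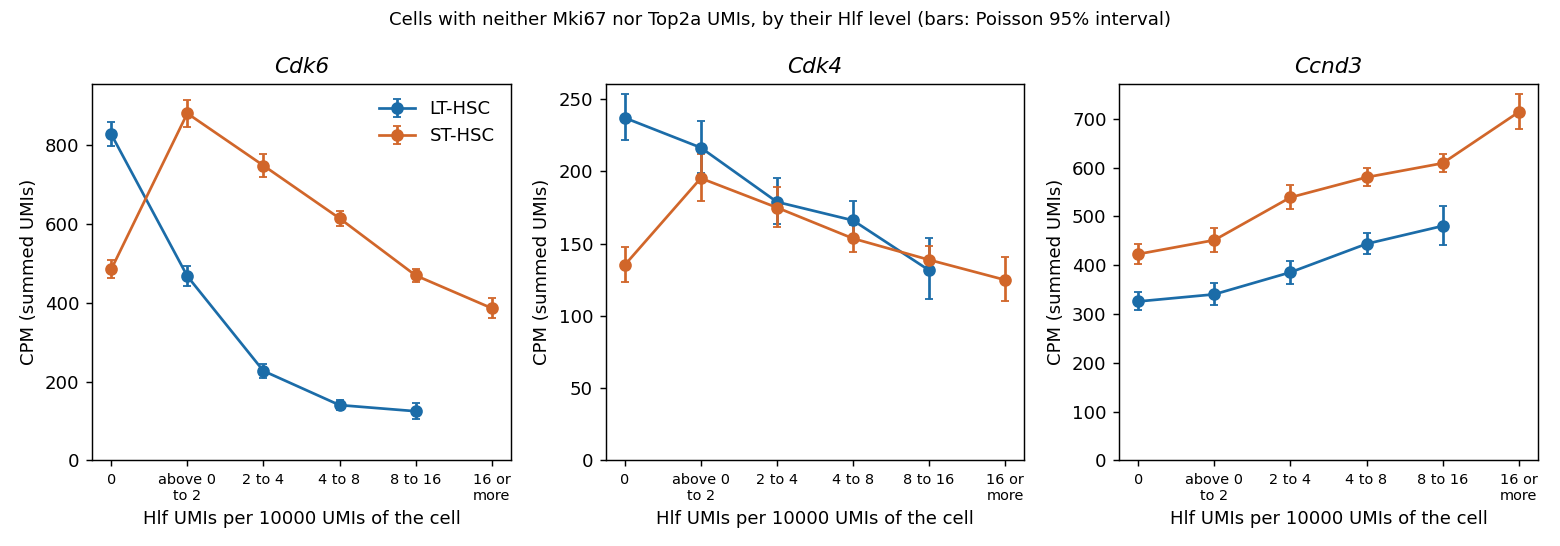
Levels of Cdk6, Cdk4 and Ccnd3 (CPM, y axis from 0) are shown in cells with neither Mki67 nor Top2a UMIs, by the cell's Hlf per 10000 UMIs (x axis), for LT-HSC (blue) and ST-HSC (orange), with Poisson 95% intervals; lines join the steps of 1 library. Cdk6 goes from 828 to 125 CPM in LT-HSC, while in ST-HSC it peaks at 881 CPM in the lowest step with Hlf detected; Ccnd3 goes up with Hlf in both.

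Car1-high cells had another mix of the same genes. Against Hlf-high cells of LT-HSC, with 3 cells in both classes left out, Cdk6 was at 602 CPM against 188 CPM, 3.21-fold higher (3.05 to 3.38), and Cdk4 at 325 against 172 CPM, 1.89-fold higher. All 3 D cyclins were lower: Ccnd1 at 11.5 against 37.9 CPM, Ccnd2 at 107 against 241 CPM and Ccnd3 at 147 against 445 CPM.

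Ccne1, the S phase entry cyclin, was at 34.6 CPM in LT-HSC Car1-high and 2.46 CPM in Hlf-high cells, 14.1-fold higher (9.16 to 22.8). Of the 7 members, 3 were called higher, against 17.3% of all genes, and 3 lower, against 41.5%, so the share called lower was near the background. TMM factors moved every log2 ratio of this comparison by 0.64, with 1788 genes higher and 4291 lower without them and 3882 higher and 2432 lower with them. With them the ratios were 5.001 for Cdk6, 0.471 for Ccnd1, 0.690 for Ccnd2 and 0.514 for Ccnd3, and Cdk2 turned from 0.903 to 1.41.

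Depth and cycling moved with this comparison too, with medians of 33500 UMIs in Car1-high and 11686 in Hlf-high cells and UMIs of both cycle genes in 41.7% and 2.72% after thinning (unthinned 74.4% and 5.95%). Among cells with neither cycle gene, 82 Car1-high and 439 Hlf-high, Cdk6 was at 986 and 138 CPM, 7.12-fold higher (6.49 to 7.82). Ccnd1 was then at a ratio of 0.385 and Ccnd3 at 0.590, while Ccnd2, at 0.707, and Cdk4, at 1.48, were within the limits. Of 6 members tested, 1 was higher, against 13.8% of all genes, and 2 were lower, against 34.0%; all genes gave 1430 higher and 3526 lower, and with TMM factors 1957 and 2940.

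In ST-HSC the D cyclins and Ccne1 of Car1-high cells stood as in LT-HSC, but Cdk6 did not. Ccnd1 was at 7.82 CPM against 34.3 CPM in Hlf-high cells, Ccnd2 at 68.2 against 150 CPM, Ccnd3 at 146 against 491 CPM and Ccne1 at 93.1 against 4.76 CPM, 19.6-fold higher (16.9 to 22.7). Cdk4 was 1.75-fold higher, at 320 against 183 CPM. Cdk6 was at 628 against 766 CPM, a ratio of 0.820 (0.798 to 0.842) that flipped to 1.02 with TMM factors, which moved log2 ratios here by 0.32. Of 7 members 2 were higher, against 20.8% of all genes, and 3 lower, against 39.0%. Among all genes 2122 were higher and 3983 lower, and with TMM factors 3190 and 3138.

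Between the libraries, Ccne1 and Ccnd2 were the members of Car1-high cells past the limit. Ccne1 was at 34.5 CPM in LT-HSC against 92.1 CPM in ST-HSC, a ratio of 2.67 (2.44 to 2.92), and after thinning 12.1% of LT-HSC and 30.4% of ST-HSC Car1-high cells held a Ccne1 UMI (unthinned 42.2% and 84.3%). Ccnd2 was at 107 and 68.8 CPM, 1.56-fold lower in ST-HSC (1.44 to 1.69). Cdk6 stood at a ratio of 1.05, Cdk4 at 0.979, Cdk2 at 0.964, Ccnd3 at 1.02 and Ccnd1 at 0.695.

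Of the 7 members in Car1-high cells, 1 was called higher in ST-HSC, against 16.5% of all genes, and 1 lower, against 10.7%, shares near the background. Both cycle genes were held by 41.7% of thinned Car1-high cells in LT-HSC and 65.4% in ST-HSC (unthinned 74.4% and 92.2%). Among those cells alone, Ccne1 was at 37.0 and 94.8 CPM, a ratio of 2.56 (2.34 to 2.81), and Ccnd2 at 0.665. Erythroid markers summed to 7398 CPM in the LT-HSC and 4889 CPM in the ST-HSC Car1-high cells. Car1, which defines the class, made up 6736 and 3765 CPM of these sums. The rest of the list was higher in ST-HSC. Klf1 was at 153 CPM in LT-HSC against 254 CPM in ST-HSC, Gata1 at 118 and 123, and Epor at 48.3 and 72.0. Tfrc was at 80.8 and 207 CPM, Ermap at 258 and 379, and Hba-a1 at 3.63 and 89.0. The part of these differences in the Ccne1 ratio was not tested.

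Pf4-high cells, compared in LT-HSC alone, had the highest Ccnd1 of its 4 compared groups. Ccnd1 was at 71.0 CPM against 37.1 CPM in Hlf-high cells, 1.91-fold higher (1.66 to 2.21), and made up 12.9% of their D cyclin UMIs, against 4.31% in Car1-high cells. Cdk6 was at 681 against 185 CPM, 3.69-fold higher (3.49 to 3.91), Cdk4 at 280 against 172 CPM and Ccne1 at 12.2 against 2.36 CPM. Ccnd3 was at 273 against 446 CPM, 1.64-fold lower (1.55 to 1.73).

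Of the 7 members, 4 were higher in Pf4-high cells, against 14.4% of all genes, and 1 lower, against 30.1%. TMM factors moved log2 ratios by 0.26 and took Ccnd2 from 0.841 to 1.01 and Ccnd3 from 0.611 to 0.730. Among all genes 1508 were higher and 3151 lower, and with the factors 2383 and 2190. In the 59 Pf4-high and 438 Hlf-high cells with neither cycle gene, Ccnd1 was at 92.4 and 34.3 CPM, a ratio of 2.70 (2.10 to 3.45), and Cdk6 at a ratio of 5.44 (4.92 to 6.02). Of 6 members tested there, 3 were higher, against 14.1% of all genes, and 1 lower, against 30.2%; all genes gave 1470 higher and 3144 lower, and with TMM factors 1963 and 2605.

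Dntt-positive cells were compared with the Hlf-high cells of ST-HSC, with cells in both classes left out. Cdk6 was at 960 against 708 CPM, a ratio of 1.36 (1.33 to 1.38), Cdk4 at 247 against 174 CPM and Ccnd2 at 127 against 156 CPM. Ccnd3 was at 323 against 493 CPM, 1.53-fold lower (1.49 to 1.57), and Ccne1 at 15.2 against 4.05 CPM, a ratio of 3.76 (3.04 to 4.67). Of 7 members, 1 was higher, against 5.0% of all genes, and 1 lower, against 9.43%. Among cells with neither cycle gene none of 6 members passed, against 4.38% of all genes higher and 8.85% lower. Ccne1 then had 4 and 18 UMIs and a log2 ratio of -0.63. Among all genes 526 were higher and 992 lower, and with TMM factors 715 and 751. With those factors Ccnd3 was at 0.702, no longer past the limit, and Cdk4 at 1.53, past it. The class rests on few molecules and on depth, with a median of 16184 UMIs against 11459 in Hlf-high cells: 679 of the 2355 Dntt-positive cells held exactly 1 Dntt UMI.

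The split by cycle genes put the members into 3 sets in both libraries. Cells with UMIs of both Mki67 and Top2a (1031 in LT-HSC and 2543 in ST-HSC) were compared with cells that had neither (1090 and 2584). Cdk6 was at 598 against 393 CPM in LT-HSC and 926 against 588 CPM in ST-HSC, ratios of 1.52 (1.48 to 1.57) and 1.57 (1.55 to 1.60). Cdk4 was at 317 against 193 CPM and 256 against 152 CPM, ratios of 1.65 and 1.68.

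The D cyclins were lower in the cells with both cycle genes. Ccnd3 was at 189 against 388 CPM in LT-HSC and 268 against 557 CPM in ST-HSC, 2.05-fold and 2.08-fold lower. Ccnd1 was 1.85-fold and 1.93-fold lower and Ccnd2 1.92-fold and 1.71-fold lower. These values pool all classes. In LT-HSC, Car1-high cells were 560 of the 1031 cells with both genes and 83 of the 1090 with neither. The D cyclins summed there to 334 against 663 CPM pooled and 246 against 471 CPM in Car1-high cells. The sums were 515 against 660 CPM in Pf4-high cells and 457 against 637 CPM in cells of no class. The part of this makeup was not tested. All 3 D cyclins, counted together, were read in fewer cycling cells: after thinning, 21.9% of LT-HSC and 19.2% of ST-HSC cells with both cycle genes had no D cyclin UMI, against 6.59% and 3.02% of cells with neither.

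Ccne1 followed the cycle genes most closely. It was at 29.5 against 1.42 CPM in LT-HSC, 20.9-fold higher (13.4 to 34.3), and at 27.2 against 1.79 CPM in ST-HSC, 15.2-fold higher (11.4 to 20.9). Its kinase Cdk2 was at 24.96 against 23.5 CPM and 25.8 against 18.2 CPM, ratios of 1.06 and 1.42. In LT-HSC 3 members were higher, against 12.1% of all genes, and 3 lower, against 30.5%; in ST-HSC 3 were higher, against 11.8%, and 3 lower, against 15.8%. Cells with both genes held a median of 33594 UMIs in the LT-HSC library, against 11478.5 with neither, and 21744 against 9179 in the other. Read in cells thinned to 5000 UMIs, the same split no longer called Cdk6, at log2 ratios of 0.42 (LT-HSC) and 0.44 (ST-HSC), nor Cdk4 in LT-HSC, at 0.48 (0.61 in ST-HSC), and put Ccne1 at 1.67 and 2.76. The D cyclins stayed lower in it, with log2 ratios from -1.34 to -0.91.

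TMM factors moved the log2 ratios of these splits by 0.40 in LT-HSC and 0.21 in ST-HSC. With them Ccnd1 was at 0.714 and Ccnd2 at 0.689 in LT-HSC, within the limits, and Ccnd3 at 0.645 and 0.555. Among all genes of LT-HSC, 1247 were higher and 3133 lower, and 2768 and 1725 with the factors. In ST-HSC the numbers were 1249 and 1680, and 1995 and 923 with them.

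Cdk6 did not follow the cycle genes alike in every class. In Car1-high cells of LT-HSC it was at 568 CPM with both genes and 964 CPM with neither, a ratio of 0.589 (0.556 to 0.624) that TMM factors put at 0.693, within the limits, and in Pf4-high cells at 654 and 741 CPM, a ratio of 0.883. In LT-HSC cells of none of the 4 classes it was at 688 and 414 CPM, a ratio of 1.66 (1.59 to 1.74). In ST-HSC the ratio was 1.83 in Hlf-high, 1.61 in Dntt-positive and 1.44 in cells of no class. The difference between classes was not tested.

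Counted over the 7 members, the split within LT-HSC called 1 higher and 3 lower in Car1-high cells, against 12.4% and 21.8% of all genes, 1 higher and 0 lower in Pf4-high cells, against 9.42% and 7.97%, and 2 higher and 0 lower in cells of no class, against 8.41% and 13.0%. In ST-HSC it called 2 of 6 higher and 2 lower in Hlf-high cells, against 7.83% and 6.09%, 2 higher and 1 lower in Dntt-positive cells, against 9.42% and 7.98%, and 3 higher and 3 lower in cells of no class, against 12.9% and 18.0%. With TMM factors all genes gave 2057 higher and 1282 lower in LT-HSC Car1-high cells, in place of 1158 and 2041, and Cdk6 was no longer among the members called lower. They gave 1109 and 1065 in LT-HSC cells of no class, in place of 876 and 1350, 1221 and 588 in Dntt-positive cells, in place of 988 and 837, and 2058 and 1273 in ST-HSC cells of no class, in place of 1354 and 1896. Ccne1 was among those called higher wherever it was tested. Its lowest such ratio was 4.57 (1.72 to 17.2) in Pf4-high cells.

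Among LT-HSC cells with both cycle genes, Cdk6 was highest at a middle level of Car1. It was at 564 CPM in cells with no Car1 UMI, 589 CPM above 0 and under 2 Car1 per 10000, 932 CPM in 73 cells at 5 to 20, and, within the Car1-high class, 632 CPM at 20 to 80 and 424 CPM at 80 or more. The step from 2 to 5, under 50 cells, was left out. ST-HSC cells with both genes had no such peak, at 993 and 1014 CPM in the lowest steps, 705 CPM at 5 to 20 and 618 CPM at 20 to 80. In LT-HSC cells with neither gene, Cdk6 was at 1051 CPM at 20 to 80, above the lower steps given, 287 and 348 CPM. The D cyclins kept their direction within the classes compared, with ratios from 0.332 for Ccnd1 in ST-HSC cells of no class to 0.879 for Ccnd3 in Pf4-high cells, although the intervals of Ccnd1 in Car1-high cells included 1 (0.533 to 1.51) and its ratio there turned from 0.869 to 1.02 with TMM factors.

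A finer split used 12 genes of S phase and 12 of mitosis in cells thinned to 5000 UMIs, a cell counting for a list when at least 4 of its genes were detected. Ccnd1 was highest in cells of the S list alone, at 49.2 CPM in LT-HSC against 56.7 CPM in ST-HSC, and lowest in cells of the mitosis list alone, at 10.8 and 15.9 CPM. Ccne1 was highest in cells of both lists, at 36.6 and 38.4 CPM, and lowest in cells of neither, at 4.8 and 1.7 CPM. These groups pool all classes, and the order was not the same within each class. Within LT-HSC Car1-high cells, Ccne1 was at 51.5 CPM with the S list alone, 46.8 CPM with both and 22.0 CPM with neither. In ST-HSC cells of none of the 4 classes, Ccnd1 was at 79.2 CPM with neither list and 61.8 CPM with the S list alone. Ccnd3 was at 590 CPM in ST-HSC cells of neither list and 222 CPM in cells of both. With all classes pooled, Cdk6 was higher in ST-HSC in each of the 4 groups, and Cdk4 was higher in LT-HSC in each. Of the 361 LT-HSC cells of the mitosis list alone, 239 were Car1-high, and the part of class makeup was not tested.

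**Figure D4:**
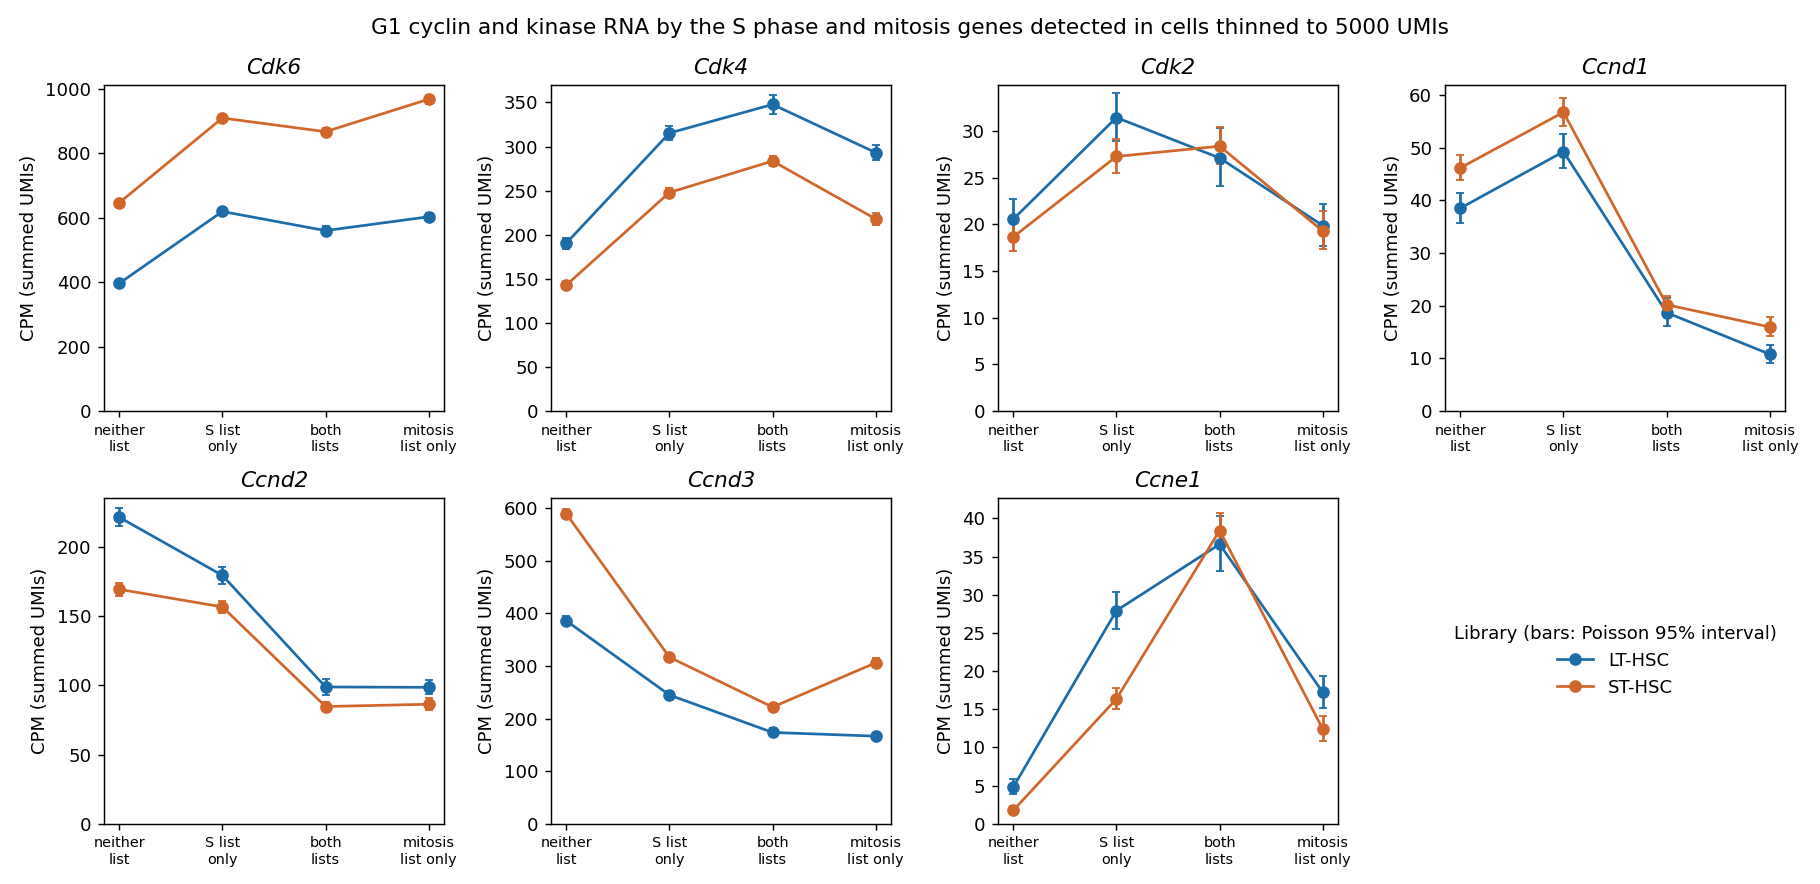
Each panel shows 1 gene's CPM (y axis from 0) in cells of neither list, of the S phase list, of both and of the mitosis list (x axis), for LT-HSC (blue) and ST-HSC (orange), with Poisson 95% intervals. With all classes pooled, Ccne1 peaks in cells of both lists at 36.6 and 38.4 CPM and Ccnd1 in cells of the S list at 49.2 and 56.7 CPM. Ccnd2 and Ccnd3 are then highest in cells of neither list.

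Cells set apart by markers of other lineages gave further values in ST-HSC. Cdk6 was at 1045 CPM (1026 to 1065) in 415 cells with at least 3 of the neutrophil-monocyte genes and at 254 CPM (217 to 296) in 66 cells with at least 3 of the T or NK cell genes. UMIs of both cycle genes were held by 69.4% of the former and 16.7% of the latter. Their median depths were 24052 and 7689.5 UMIs, and the part of cycling and depth was not tested. Those 66 cells held Ccnd3 at 593 CPM and Ccnd1 at 1.6 CPM. In LT-HSC no cell had 3 genes of either list.

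The rest of the pathway was read from fixed lists. Of 7 Cdk inhibitors, 5 were tested between the libraries, with 1 higher and 2 lower in ST-HSC and a median log2 ratio of -0.35, against 0.12 over all genes. Of all genes, 24.9% were higher and 10.3% lower in that comparison. Cdkn1c, which encodes p57 and marks resting stem cells, was at 26.7 CPM in LT-HSC against 9.16 CPM in ST-HSC, and Cdkn1a, which encodes p21, at 13.3 and 23.0 CPM. The other lower inhibitor, Cdkn2d, was at a ratio of 0.640; it and the genes below given as outside the naming rule were chosen after their values were seen. Within Hlf-high cells Cdkn2d was lower too, at 0.648, and Cdkn1c was at 85.4 and 14.3 CPM and Cdkn1b, which encodes p27, at 85.6 and 53.0 CPM. Of the 3 pocket proteins, the targets of these kinases, Rbl1 and Rbl2 were higher between the whole libraries, at ratios of 1.55 and 1.53. Both lay near the 1.5-fold limit. List values are without TMM factors, which moved all log2 ratios between the whole libraries by -0.13.

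Among 10 E2F factors and partners, 3 were higher and 1 lower in ST-HSC, against 24.9% and 10.3% of all genes. Those shares also apply to the whole-library counts of the lists that follow. E2f7, a repressor, was at 8.40 CPM in LT-HSC against 20.01 CPM in ST-HSC, and E2f3, an activator, at 60.1 and 124 CPM. The others called, outside the naming rule, were E2f2 at a ratio of 2.07 and E2f4 at 0.534. Of 10 other cyclins and kinases tested, Ccng2 was higher, at 1.68, and 0 were lower; the pair the rule named, Ccng1 and Mnat1, stood at 0.766 and 1.23. Of 12 genes upstream or in turnover, 1 was higher and 3 lower, with Mycn at 51.2 CPM in LT-HSC against 10.97 CPM in ST-HSC and Myc at 113 and 58.5 CPM. Outside the rule, Cks2 was lower, at 0.611, and Fbxw7, part of the ligase that degrades cyclin E, higher, at 1.73. Within Hlf-high cells, 5 of 10 E2F genes, 5 of 10 other cyclins and kinases and 7 of 12 upstream genes were higher in ST-HSC, where 16.2% of all genes were, and 3 of 5 inhibitors and 1 upstream gene, Mycn, were lower, where 13.6% were; 1 inhibitor, Cdkn2c, was higher. These cells also differ in cycling, with UMIs of both cycle genes in 5.95% and 28.5% of them, and its part in these counts was not tested.

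The genes most like each member were ranked by Pearson's r of log2(CPM + 1) over 14 groups of library, class and cycle genes, among 6845 genes with a mean of at least 20 CPM. These groups share 2 libraries and differ in depth, so r is a description. For Cdk6 they were Foxn2 (r = 0.91), Eipr1 (0.89), Cd48 (0.86, a gene of the sorting gate), Gtpbp1 (0.84) and Zbed4 (0.84). For Cdk4 they were Umps (0.98), Zmynd19 and Ran, for Cdk2 Rnf168 (0.96), Mettl9 and Tmem39b, and for Ccne1 Mrpl51 (0.98), Mars and Psmd14. For the D cyclins they were Sla (0.96), Ccdc12 and Inpp4b with Ccnd1, Zfand5 (0.98), Il27ra and Tspyl1 with Ccnd2, and Ddx17 (0.96), Traf6 and Tmem30a with Ccnd3. Among the members, the lowest r were -0.91 for Ccnd3 with Ccne1 and -0.90 for Ccnd3 with Cdk4, and the highest 0.86 for Cdk4 with Ccne1. Cdk6 reached no more than 0.42 with any other member.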

How the data were processed

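The authors deposited unnormalised UMI counts, 1 matrix per library. Per the file headers they were written by Cell Ranger 7.1.0; per the submitters' processing notes, Cell Ranger 7.2 and mm10 were used. Cells were kept with at least 1000 genes and under 10% mitochondrial UMIs. Doublets were not removed in the main values. Scrublet (scanpy 1.11.5) called 6 LT-HSC and 0 ST-HSC cells, which had not worked, so the alternative left out those 6 and the 384 ST-HSC cells above the quantile of the expected rate. Counts were summed per group and divided by the group total (CPM). Intervals are at the 95% level and came from scipy 1.17.1, TMM factors from edgeR 4.0.16 and median-of-ratios factors from DESeq2 1.42.0. Thinning drew 5000 UMIs from each cell. The 68 cells of LT-HSC and 281 of ST-HSC that had fewer were left out of thinned values and of groups made from them. Coordinates came from GENCODE M21. The ratio, its interval and the size limit were tested on simulated Poisson counts with known folds. Those counts held no variation between cells or libraries beyond counting error, so the simulation checks the calculation only.

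All 7 members are named, with, in each pathway list, the 2 genes of largest log2 ratio that reach 20 CPM, and the 5 (Cdk6) or 3 (others) most alike genes. The members and lists were chosen with earlier results of these data known. RefSeq protein sequences were not used here.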

Additional observations from a re-analysis of the deposited data

Results flagged for a closer look

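Cdk6 went opposite ways with the cycle genes in different classes of LT-HSC cells. Its ratio of cells with both Mki67 and Top2a UMIs to cells with neither was 0.589 in Car1-high cells and 1.66 in cells of none of the 4 classes. With TMM factors the ratios were 0.693, within the 1.5-fold limit, and 1.78. Both come from the same library, the difference between them was not tested, and the Car1-high ratio rests on 83 cells with neither gene. The median depth of those 83 cells was 13396 UMIs, against 42448.5 in the 560 Car1-high cells with both genes, and the part of depth was not tested.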

How the results depend on the processing

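Counts of members past the limit kept within 1.5 times of the main count in 47 of 59 alternatives. Of 384 values of single members under alternatives, 197 stayed inside the counting interval of the main value, 186 moved outside it and 1 reversed; of 205 whose main value was past the limit, 25 came to lie within it. In the whole-library comparison the 1 member became 0 with TMM factors, median of ratios, the mean over cells, thinning to 5000 UMIs, a 2-fold limit, or without cells with Mki67 or Top2a UMIs, and 3 at the lower of the alternative fold limits. Without those cycle-gene cells, the 2 members in Hlf-high cells became 1, the 6 of Car1-high over Hlf-high LT-HSC cells became 3 and the 2 of Dntt-positive over Hlf-high cells became 0, and the latter became 1 with the mean over cells. In Car1-high cells the 2 between libraries became 1 with class limits multiplied by 2. Counting as reversed a member past the limit whose log2 ratio changes sign, the 1 such value was Ccne1 in Dntt-positive over Hlf-high cells, at a log2 ratio of -0.63 without cycle-gene cells. Sign changes of values within the limit numbered 27, among them Ccne1 in all kept cells, from -0.22 to 0.41 without Car1-high and Pf4-high cells. Fewer cells remain in those settings; the cause was not tested. Cdk6 in all kept cells ranged in log2 ratio from 0.47 to 0.93 over 9 alternatives. With the ST-HSC Car1-high cells, the setting without cycle-gene cells was not run, since 10 cells remained. No paired analysis was possible because each group has 1 library and no test was made. Depth limits Ccne1 and Cdk2 most, whose levels rest on few UMIs per cell.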
